A study of Mus musculus with 15 samples.

Results

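Levels are given for 10 mouse genes that direct lymphocytes to tissues, taken by gene name from a table of 56748 genes. They are 7 chemokine ligands (Cxcl9, Cxcl10, Cxcl16, Ccl5, Cxcl13, Ccl19 and Ccl21a) and 3 chemokine receptors (Cxcr3, Cxcr6 and Ccr7). All 10 had counts in each of the 15 libraries and passed the filter on low counts in both organs. RNA was taken from whole kidney or whole lung of male WT C57Bl/6 mice, with 3 libraries in each of 5 groups. WTK kidneys came from mice that had received vehicle, and their labels name no antibody. IgGK kidneys came from mice injured by a single intraperitoneal dose of 200 mg/kg folic acid and then treated with control IgG. LepK kidneys came from mice injured by the same dose and then treated with LepAb (hLep3), a human monoclonal antibody that neutralizes leptin. All kidney mice were 10 to 12 weeks old, and the kidneys were taken on day 28. IgGL and LepL lungs came from mice 12 weeks old that received bleomycin at 1.5 units/kg into the trachea, were treated with IgG or LepAb, and were euthanized on day 14. Both antibodies were given every other day at 10 mg/kg from day 1. Per the paper, dosing ended before the day of euthanasia in the kidney mice and ran up to it in the lung mice. Lungs without bleomycin were not analysed here, so the lung values have no uninjured reference.

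Chemokines are small secreted proteins that bind G protein-coupled receptors on leukocytes and guide their migration. Interferon-γ induces Cxcl9 and Cxcl10, whose receptor Cxcr3 sits mainly on activated T cells and natural killer cells, while Cxcl16 is made as a membrane protein and shed as the ligand of Cxcr6. Cxcl13 attracts B cells through Cxcr5, and Ccl19 and Ccl21a attract naive T cells and mature dendritic cells through Ccr7, as in the T cell zone of lymph nodes.

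The positions of the genes are those of the deposited table, whose build the submitters' processing notes give as GRCm39. The Cxcr3 ligands Cxcl9 and Cxcl10 lie close together on chromosome 5, Cxcl9 (ENSMUSG00000029417) at chr5:92469206-92475938 and Cxcl10 (ENSMUSG00000034855) at chr5:92494497-92496748, and Cxcl13 (ENSMUSG00000023078) lies further along at chr5:96104810-96108927. Ccl19 (ENSMUSG00000071005, chr4:42754525-42756577) and Ccl21a (ENSMUSG00000094686, chr4:42772860-42773993) are neighbours on chromosome 4. Chromosome 11 carries Cxcl16 (ENSMUSG00000018920, chr11:70344809-70350810), Ccl5 (ENSMUSG00000035042, chr11:83416604-83421344) and Ccr7 (ENSMUSG00000037944, chr11:99035022-99045903). Cxcr6 (ENSMUSG00000048521) is at chr9:123635540-123640825 and Cxcr3 (ENSMUSG00000050232) at chrX:100775141-100777875. All 10 are protein-coding, Cxcr6 and Cxcl13 on the plus strand and the other genes on the minus strand.

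The stretches of DNA before the start of Cxcl9, Cxcl10 and Ccl19 are shown because the first 2 are the ligands of the interferon-γ axis and because the letters searched for were present in Cxcl10 and Ccl19. RefSeq's promoter table (build GRCm38.p6) matched 7 of the 10 genes. Cxcl16, Ccl5 and Ccr7 had no entry in it. Each stretch covers the 250 bases before the start given by RefSeq, written 5′ to 3′ on the strand of the gene, at chr5:92328080-92328329 for Cxcl9, chr5:92348890-92349139 for Cxcl10 and chr4:42756366-42756615 for Ccl19, all on the minus strand. Ccl19 as deposited reaches chr4:42756577, a number inside the range of its stretch. The builds were not aligned, so the RefSeq and deposited starts were not compared. Capitals mark the letters that matched a searched motif.
Cxcl9: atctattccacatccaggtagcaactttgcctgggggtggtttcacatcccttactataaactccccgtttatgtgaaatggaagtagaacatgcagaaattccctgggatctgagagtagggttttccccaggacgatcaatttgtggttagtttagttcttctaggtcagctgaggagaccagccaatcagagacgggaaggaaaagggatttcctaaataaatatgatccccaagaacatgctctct
Cxcl10: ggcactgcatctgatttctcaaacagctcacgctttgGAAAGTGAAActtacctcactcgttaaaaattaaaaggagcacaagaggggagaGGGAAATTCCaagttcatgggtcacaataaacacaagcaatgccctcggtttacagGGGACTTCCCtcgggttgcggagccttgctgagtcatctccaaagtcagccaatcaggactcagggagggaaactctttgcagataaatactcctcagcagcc
Ccl19: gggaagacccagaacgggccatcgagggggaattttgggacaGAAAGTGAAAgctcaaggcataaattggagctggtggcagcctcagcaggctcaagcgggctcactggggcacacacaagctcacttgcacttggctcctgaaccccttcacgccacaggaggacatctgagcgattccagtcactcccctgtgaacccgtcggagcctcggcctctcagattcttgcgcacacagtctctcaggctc
The search covered both strands of the 300 bases from 250 before to 50 after the start. The core of the interferon-stimulated response element (GAAANNGAAA) matched in Cxcl10, from base -213 to base -204, and in Ccl19, from base -208 to base -199. Of all 32851 promoters in the table, 3.44% held it. The NF-kB consensus matched at 2 places in Cxcl10 (bases -159 to -150 and -103 to -94) and in none of the other 6 genes, and 4.51% of all promoters held it. The interferon-γ activated sequence (TTCNNNGAA) was in 8.3% of all promoters and in 0 of the 7. A match is a match of letters in this window and says nothing of binding.

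Total counts ranged from 25913969 to 38924788 per library, and levels are given as CPM (counts per 1000000 counts of a library). CPM values were scaled by factors computed within the kidney and within the lung libraries, and the 2 scales are set side by side below but not tested against each other. On these scales 1 count equalled 0.0252 to 0.0415 CPM. The tissue labels matched the markers, with 6 lung markers summing to 16179.5 to 21946 CPM in IgGL, 29932 to 46978 in LepL and under 10 CPM in each kidney. Some libraries stood apart in the levels of these genes. IgGK replicate 2 was the highest of its group for 9 of the 10 genes, LepL replicate 1 for 10, IgGL replicate 1 for 8 and LepK replicate 2 for 7. Those libraries were also the highest of their groups in the sum of 15 T cell markers. The libraries were not strand-specific, and 5 of the genes overlap a gene on the opposite strand, so their reads cannot be told apart from those of Zmynd15 (Cxcl16), Art3 (Cxcl10), Fyco1 (Cxcr6) and 4930578G10Rik (Ccl19 and Ccl21a). Fyco1 had 25227 counts over all libraries against 1573 for Cxcr6. Ccl21a is also uncertain in that its copies Ccl21b and Ccl21d had 0 counts in every library.

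Levels of different genes can be compared only per gene length, for which the FPKM values deposited by the authors were used. Cxcl16 was the most abundant of the 10 in the kidney, with a median of 13.6 FPKM in WTK, 40.6 in IgGK and 29.2 in LepK, above the range of the next gene in each group. In the lung Ccl21a came first, with medians of 39.6 FPKM in IgGL and 43.1 in LepL, followed by Cxcl16 at 32.6 and 28.7. The ranges of those 2 genes overlapped in IgGL and not in LepL. Next stood Cxcl13 in IgGL (19.9 FPKM) and Ccl5 in LepL (10.8 FPKM). The lower end of the order was held by Cxcl13 in WTK and IgGK (0.268 and 0.541 FPKM), by Ccr7 in LepK (0.718 FPKM) and by Ccl19 in IgGL and LepL (0.414 and 0.591 FPKM). Most neighbours in these orders overlapped. Those that did not were Cxcl16 and Ccl21a, Cxcl10 and Cxcl9, and Cxcl9 and Cxcr6 in WTK. In IgGK they were Cxcl16 and Ccl5, Cxcl10 and Ccl21a, and Ccr7 and Cxcl13, and in LepK Cxcl16 and Ccl21a, and Cxcl10 and Cxcl9. In IgGL they were Cxcl13 and Ccl5, and Cxcl10 and Cxcl9, and in LepL Ccl21a and Cxcl16, Cxcl16 and Ccl5, Cxcl10 and Cxcr6, and Cxcl9 and Cxcr3.

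**Figure D1:**
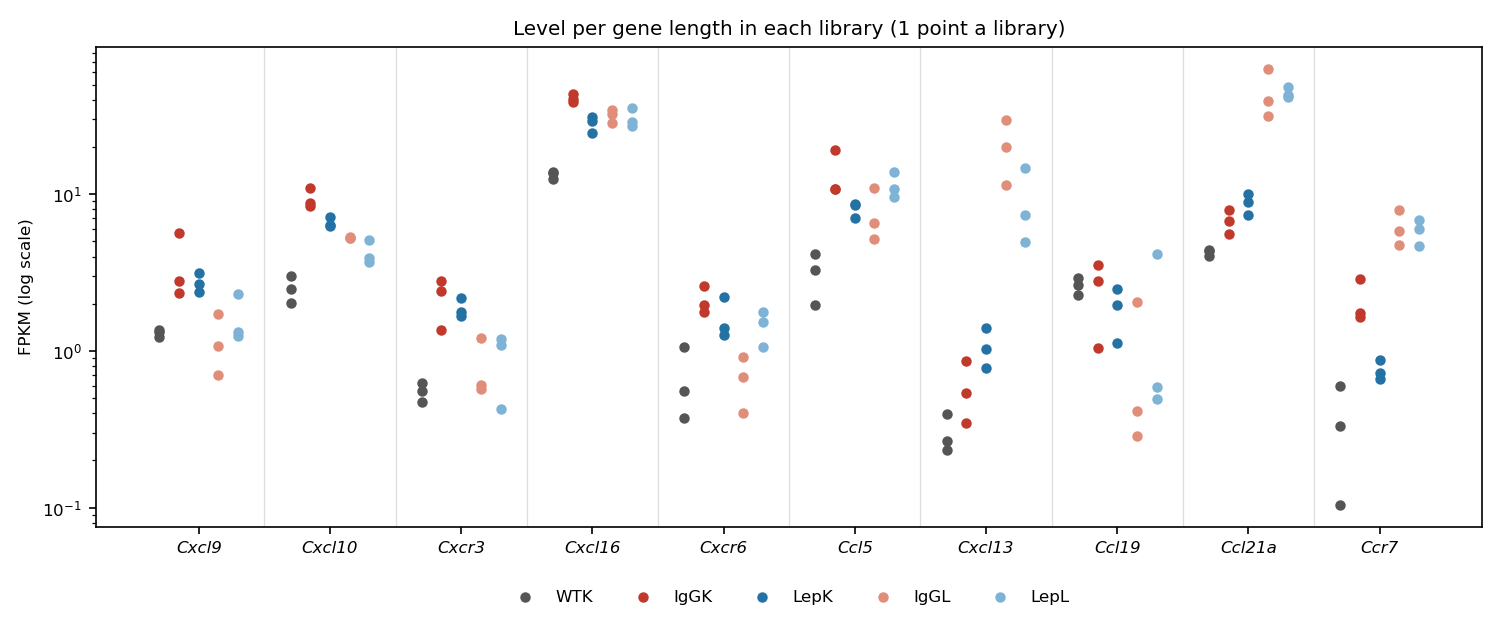
FPKM on a log axis for each of the 10 genes, with 1 point for each of the 15 libraries, coloured by group. The medians of Cxcl16 run from 13.6 in WTK to 40.6 in IgGK, while Cxcl13, Ccl21a and Ccr7 have their highest points in the lung groups.

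The first question was how these genes differed between the IgG-treated kidney injured by folic acid and the vehicle kidney. The WTK labels name no antibody, so injury and antibody dosing cannot be told apart here or in LepK against WTK. Of the 10 genes, 8 rose in IgGK against WTK and 0 fell. Among all 19593 genes tested 21.7% were called higher and 15.6% lower. The median log2 fold change of the 10 was 1.68, beside 0.041 over all genes tested. Whole-organ RNA was measured, so that a change in the number of cells of a type and a change in RNA per cell cannot be told apart here or below.

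Cxcl9, Cxcl10 and their receptor Cxcr3 rose. Cxcl10 was at 5.52, 6.75 and 8.22 CPM in WTK replicates 1, 2 and 3 and at 23.3, 30.8 and 24.6 CPM in IgGK. Each IgGK library was above each WTK library, and the level rose 3.82-fold (log2 fold change 1.93 ± 0.15 (SE), adjusted p = 4.95e-07). Cxcl9 was at 4.49, 4.94 and 4.83 CPM in WTK and at 8.67, 21.1 and 10.5 CPM in IgGK, in the same replicate order, which is kept throughout. The groups did not overlap, although IgGK replicate 2 was far above the other two, and Cxcl9 rose 2.83-fold (log2 fold change 1.50 ± 0.28 (SE), adjusted p = 0.000566). Cxcr3, the receptor of both, was at 0.997, 1.30 and 1.15 CPM in WTK and at 2.90, 5.97 and 5.17 CPM in IgGK. It rose 4.06-fold (log2 fold change 2.02 ± 0.30 (SE), adjusted p = 8.3e-05), with no overlap between the groups.

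Cxcl16, the ligand that is shed from the cell surface, was at 45.5, 49.5 and 50.5 CPM in WTK and at 144, 162 and 153 CPM in IgGK. The groups did not overlap, its SE was the smallest of the 10, and it rose 3.16-fold (log2 fold change 1.66 ± 0.09 (SE), adjusted p = 4.54e-08). Its receptor Cxcr6 was at 0.872, 2.49 and 1.30 CPM in WTK and at 4.68, 6.26 and 4.28 CPM in IgGK. The lowest IgGK library lay above the highest WTK library, WTK replicate 2, and Cxcr6 rose 3.26-fold (log2 fold change 1.70 ± 0.36 (SE), adjusted p = 0.00143). Ccl5, a chemokine made by activated T cells and natural killer cells, was at 2.28, 3.79 and 4.80 CPM in WTK and at 12.8, 22.7 and 13 CPM in IgGK. It rose 4.44-fold (log2 fold change 2.15 ± 0.27 (SE), adjusted p = 2.57e-05), and again IgGK replicate 2 was the highest.

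The genes of lymphoid tissue did not move together. Ccr7, the receptor of naive T cells and mature dendritic cells, was at 0.249, 1.42 and 0.793 CPM in WTK and at 4.29, 7.06 and 4.05 CPM in IgGK. The groups did not overlap, and the fold of 6.20 was the highest of the 10 (log2 fold change 2.63 ± 0.45 (SE), adjusted p = 0.000291). It rested on 6, 36 and 22 counts in WTK, and the log2 fold change was 3.26 without WTK replicate 2 and 2.22 without WTK replicate 1. Of its ligands, Ccl21a was at 4.28, 4.54 and 4.65 CPM in WTK and at 7.29, 8.55 and 6.01 CPM in IgGK, and rose 1.62-fold without overlap (log2 fold change 0.70 ± 0.18 (SE), adjusted p = 0.00516). Ccl19 was at 2.78, 3.08 and 2.38 CPM in WTK and at 1.12, 3.83 and 3.01 CPM in IgGK, with IgGK replicate 1 below and replicate 2 above all WTK libraries. It did not pass the test (log2 fold change -0.045 ± 0.41 (SE), adjusted p = 0.938), and its estimate was 0.40 under scaling by library size alone. Cxcl13, the B cell attractant, was at 0.374, 0.553 and 0.325 CPM in WTK and at 0.495, 0.772 and 1.24 CPM in IgGK. These levels were near or below 1 CPM, the groups overlapped, and the difference did not pass the test (log2 fold change 1.0 ± 0.47 (SE), adjusted p = 0.0937). The 8 genes called were called again when any 1 library was left out, and Cxcl13 was called too without IgGK replicate 1 (log2 fold change 1.26, adjusted p = 0.0485).

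**Figure D2:**
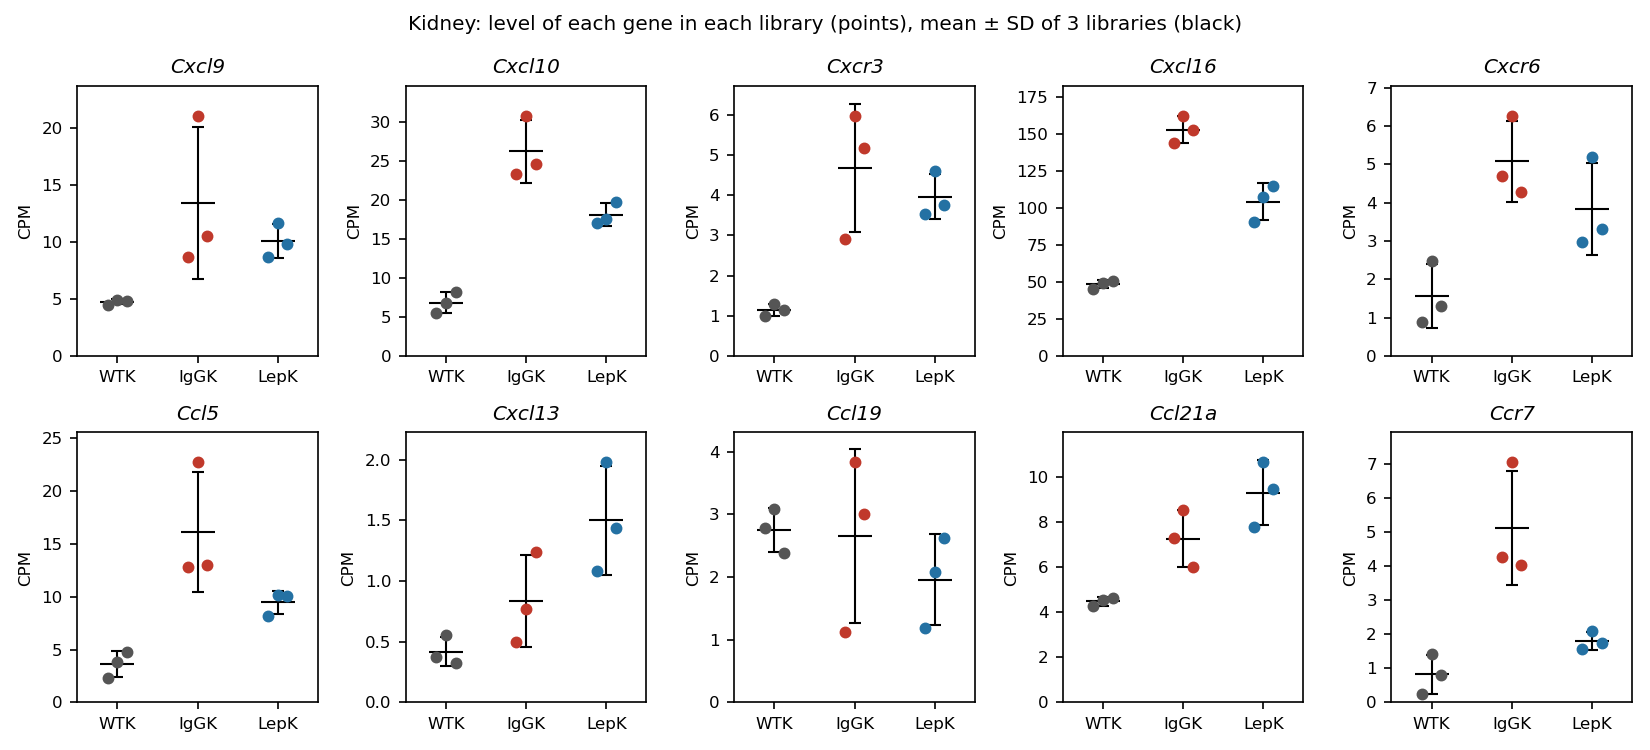
CPM of each of the 10 genes in the WTK, IgGK and LepK kidneys, each panel with its own linear axis from 0, points for libraries and black marks for the mean ± SD of 3 libraries. The mean of Cxcl16 is 48.5 ± 2.65 CPM (SD, n = 3) for WTK, 153 ± 9.01 CPM for IgGK and 104 ± 12.5 CPM for LepK, and the Ccr7 points of LepK (1.58 to 2.11 CPM) lie below those of IgGK (4.05 to 7.06 CPM).

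Other genes of these pathways were read from lists grouped by function, which were chosen with earlier results of these data known. Of 25 tested chemokine partners (other ligands, receptors and scavengers), 13 rose and 1 fell in IgGK against WTK. Ccl3, an inflammatory chemokine of macrophages, rose 4.48-fold (adjusted p = 0.0149). Ccl4 (log2 fold change 1.14 ± 0.53 (SE), adjusted p = 0.0924), the third Cxcr3 ligand Cxcl11 (log2 fold change 0.81 ± 0.34 (SE), adjusted p = 0.0632) and the Cxcl13 receptor Cxcr5 (log2 fold change 0.15 ± 0.75 (SE), adjusted p = 0.885) did not pass the test. The list's highest fold was that of Ackr1, an atypical receptor of venules, at 44.1-fold from near 0. Next were Ccl20, the ligand of Ccr6, at 32-fold and Ccl17, a Ccr4 ligand, at 18.9-fold. Over all WTK libraries together Ackr1, Ccl20 and Ccl17 had only 3, 4 and 26 counts.

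Of 18 genes of the interferon-γ response, 13 rose and 0 fell in IgGK against WTK. Ciita, the regulator of class II genes, rose 4.30-fold, and the guanylate-binding proteins Gbp5 and Gbp3 rose 3.09- and 3.01-fold. Ifng itself was at 0.166 to 0.474 CPM in WTK and 0 to 0.514 CPM in IgGK and did not pass the test (log2 fold change -0.089 ± 0.88 (SE), adjusted p = 0.944). Of 15 genes of lymphotoxin and noncanonical NF-kB signaling, a pathway of lymphoid tissue formation, 10 rose and 1 fell. Ltb, a subunit of lymphotoxin, rose 7.65-fold and Tnfsf13b, the B cell survival factor BAFF, 6.73-fold, while Tnfsf11 was at 0 in the WTK libraries and at 0.607 to 1.15 CPM in IgGK. Of 4 proteases that cut chemokines, 2 rose, namely Mmp9 (3.87-fold) and Adam17 (1.62-fold), which with Adam10 sheds Cxcl16.

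Markers of the cells that carry or make these chemokines were summed library by library. The 15 T cell markers all rose in IgGK against WTK, with sums of 16.7 to 23.3 CPM in WTK and 77 to 128 CPM in IgGK. Cd4 rose 8.60-fold, Cd3e 7.04-fold and Cd8a 3.48-fold. The 10 dendritic cell markers all rose (35.5 to 44.1 against 132 to 196 CPM), and so did 10 of 12 macrophage markers (267 to 308 against 1862 to 2361 CPM). Of 11 cytotoxic and natural killer markers 3 rose (6.15 to 7.74 against 11.2 to 19.7 CPM), and of 10 B cell markers 2, Cd22 and Cd79b (14.6 to 22.9 against 17 to 28.4 CPM). The B cell marker Ms4a1 did not pass the test (adjusted p = 0.956). Of 6 plasma cell markers 0 passed the test (249 to 370.3 against 223 to 429.9 CPM, of which Jchain alone gave 238 to 354 and 211 to 407 CPM). The part of these markers in the chemokine and receptor levels was not tested.

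Stromal markers were read next. Among 7 lymphatic endothelial markers, 2 rose (Pdpn and Nrp2) and 1 fell (Reln), at sums of 49 to 56.4 CPM in WTK and 110.0 to 122 CPM in IgGK. The higher sum lay mainly in Pdpn (mean 5.58 CPM in WTK and 44.1 CPM in IgGK) and Nrp2 (21.1 and 47.5 CPM). Prox1, the defining factor of lymphatic endothelium, did not pass the test (log2 fold change 0.072 ± 0.14 (SE), adjusted p = 0.684). Of 7 markers of lymph node stroma and high endothelial venules 4 could be tested and 3 rose, with sums of 1.82 to 2.06 CPM in WTK and 3.66 to 4.63 CPM in IgGK. Nkx2-3 was at 0 in all kidney libraries, and Glycam1, a product of high endothelial venules, did not exceed 0.252 CPM in any kidney.

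Genes of T cells can also be set beside the T cell marker sum of the same library. For each 100 CPM of T cell markers, Cxcr3 stood at 5.05 to 5.97 CPM in WTK and 3.77 to 5.44 CPM in IgGK, and Ccl5 at 13.7 to 21 and 13.7 to 17.8 CPM. Both ranges overlapped between the groups. Cxcl16 for each 100 CPM of macrophage markers was 16.4 to 18.6 CPM in WTK and 6.88 to 7.95 CPM in IgGK. Lyz2 alone gave 33.7 to 46.3 CPM of the sum in WTK and 1014 to 1285 CPM in IgGK. With Lyz2 left out of the sum, an alternative chosen after the data were seen, the values were 19.3 to 21.3 and 15.1 to 17.2 CPM.

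The next question was what differed when leptin was neutralized after the same injury. In LepK against IgGK, 4 of the 10 genes fell and 0 rose, beside 5.99% of all genes tested called lower and 4.38% called higher. The 4 were Ccr7, Ccl5, Cxcl16 and Cxcl10. The median log2 fold change of the 10 genes was -0.43, beside -0.012 over all genes.

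Ccr7 was at 4.29, 7.06 and 4.05 CPM in IgGK and at 1.58, 2.11 and 1.74 CPM in LepK. The groups did not overlap, and LepK stood at 0.353 of the IgGK level (log2 fold change -1.50 ± 0.42 (SE), adjusted p = 0.0233). Ccl5 was at 12.8, 22.7 and 13 CPM in IgGK and at 8.23, 10.2 and 10.04 CPM in LepK. All LepK libraries were lower, at 0.586 of the IgGK level, but the adjusted p lay just inside the threshold of 0.05 (log2 fold change -0.77 ± 0.25 (SE), adjusted p = 0.0498). Cxcl16 was at 144, 162 and 153 CPM in IgGK and at 90.7, 108 and 115 CPM in LepK. It fell to 0.681 of the IgGK level without overlap (log2 fold change -0.55 ± 0.087 (SE), adjusted p = 0.00118). Cxcl10 was at 23.3, 30.8 and 24.6 CPM in IgGK and at 17.1, 17.5 and 19.8 CPM in LepK. It too fell without overlap, to 0.691 of the IgGK level (log2 fold change -0.53 ± 0.14 (SE), adjusted p = 0.0184), close to the fold threshold of 0.5 on the log2 scale.

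Cxcl9, another ligand of Cxcr3, did not pass the test, nor did the receptors Cxcr3 and Cxcr6. Cxcl9 was at 8.67, 21.1 and 10.5 CPM in IgGK and at 8.66, 11.6 and 9.86 CPM in LepK (log2 fold change -0.42 ± 0.27 (SE), adjusted p = 0.306). The difference lay in IgGK replicate 2, and without that library the log2 fold change was 0.069. Cxcr3 was at 2.90, 5.97 and 5.17 CPM in IgGK and at 3.52, 4.59 and 3.77 CPM in LepK, where the LepK libraries lay within the IgGK range (log2 fold change -0.24 ± 0.27 (SE), adjusted p = 0.583). Cxcr6 was at 4.68, 6.26 and 4.28 CPM in IgGK and at 2.96, 5.20 and 3.32 CPM in LepK, with LepK replicate 2 above the lower pair of IgGK libraries (log2 fold change -0.41 ± 0.34 (SE), adjusted p = 0.445).

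The ligands of lymphoid tissue gave estimates of either sign. Cxcl13 was at 0.495, 0.772 and 1.24 CPM in IgGK and at 1.09, 1.98 and 1.44 CPM in LepK, with overlap (log2 fold change 0.84 ± 0.44 (SE), adjusted p = 0.208). Ccl21a was at 7.29, 8.55 and 6.01 CPM in IgGK and at 7.80, 10.7 and 9.49 CPM in LepK, with overlap (log2 fold change 0.36 ± 0.17 (SE), adjusted p = 0.174). Ccl19 was at 1.12, 3.83 and 3.01 CPM in IgGK and at 1.19, 2.08 and 2.62 CPM in LepK (log2 fold change -0.44 ± 0.41 (SE), adjusted p = 0.499). The spread of Ccl19 in IgGK covered that of LepK, and none of these 3 ligands was called.

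The calls for the antibody in kidney rested on particular libraries. Without IgGK replicate 2 only Cxcl16 was called (log2 fold change -0.51), and Ccr7, Ccl5 and Cxcl10 had log2 fold changes of -1.20, -0.44 and -0.40 (adjusted p = 0.111, 0.263 and 0.0991). Without LepK replicate 1 none was called. Cxcl16 then had a log2 fold change of -0.46, under the fold threshold, at adjusted p = 0.00229, and Ccr7 one of -1.41 at adjusted p = 0.0764. Without LepK replicate 2 Ccl5 was not called (adjusted p = 0.0675), and without LepK replicate 3 neither Ccl5 nor Ccr7 was (adjusted p = 0.0945 and 0.0681). All 4 genes kept a negative estimate when any 1 library was left out.

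Among the partners, 5 of 25 fell and 0 rose in LepK against IgGK. Cxcr4, Ccl17 and Ackr1 fell to 0.419, 0.345 and 0.324 of their IgGK levels. Ccl3 (log2 fold change -1.27 ± 0.61 (SE), adjusted p = 0.172), Ccl4 (log2 fold change 0.10 ± 0.50 (SE), adjusted p = 0.916), Cxcl11 (log2 fold change 0.15 ± 0.33 (SE), adjusted p = 0.791) and Cxcr5 (log2 fold change -0.80 ± 0.77 (SE), adjusted p = 0.518) did not pass the test. Of the 18 interferon-γ response genes 8 fell, with Ciita at 0.516, Gbp7 at 0.588 and Gbp2 at 0.597 of the IgGK level, and the list's median log2 fold change was -0.61. Ifng was at 0.0658 to 0.101 CPM (log2 fold change -1.81 ± 1.01 (SE), adjusted p = 0.24). In the lymphotoxin and noncanonical NF-kB list 2 of 15 fell, Tnfsf13b to 0.595 and Tnfrsf11a (RANK) to 0.703 of the IgGK level. None of the 4 proteases passed the test.

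The markers of other cells moved unequally. Of 12 macrophage markers 10 fell, with Adgre1 (F4/80) at 0.377 of the IgGK level and sums of 1862 to 2361 CPM in IgGK and 701 to 1018 CPM in LepK. Of 10 dendritic cell markers 2 fell, Itgax (CD11c) to 0.387 and Fscn1 to 0.649 of the IgGK level, with sums of 132 to 196 and 81.5 to 107 CPM. Of 15 T cell markers 1, Cd3d, fell (0.453 of the IgGK level), while Cd3e, Cd4 and Cd8a did not pass the test (adjusted p = 0.58, 0.0783 and 0.852) and the T cell sums of 77 to 128 and 60.6 to 82.6 CPM overlapped. No marker of cytotoxic cells (11.2 to 19.7 and 11 to 12.6 CPM), B cells (17 to 28.4 and 17.2 to 24.2 CPM) or plasma cells (223 to 429.9 and 389 to 436 CPM) passed it. Jchain alone gave 369 to 418 CPM of the plasma cell sum in LepK. All 15 T cell markers had log2 fold changes below 0, with a median of -0.45. Lymphatic markers summed to 79 to 95.9 CPM in LepK, where Nrp2 and Pdpn fell and Reln rose, and lymph node stroma markers to 2.99 to 3.06 CPM, with 0 called and Glycam1 at 0.

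The ratios of Ccr7 to the T cell and dendritic cell markers were lower in LepK. For each 100 CPM of T cell markers, Ccr7 was 4.26 to 5.57 CPM in IgGK and 2.39 to 2.61 CPM in LepK, and these ranges did not overlap. For each 100 CPM of dendritic cell markers it was 2.74 to 3.60 and 1.89 to 1.98 CPM, also without overlap. Itgax alone gave 46.9 to 74 CPM of the dendritic cell sum in IgGK and 16.6 to 26.7 CPM in LepK. Relative to T cell markers again, Cxcr3 was 3.77 to 5.44 and 5.19 to 5.81 CPM, Cxcr6 4.50 to 6.08 and 4.58 to 6.29 CPM, and Ccl5 13.7 to 17.8 and 12.3 to 13.8 CPM, each with overlap. Cxcl16 for each 100 CPM of macrophage markers was 6.88 to 7.95 CPM in IgGK and 10.6 to 12.9 CPM in LepK, and with Lyz2 left out of the sum (276 to 466 CPM in LepK) it was 15.1 to 17.2 and 19.5 to 21.3 CPM. These ratios describe the libraries, and no test was run on them.

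**Figure D3:**
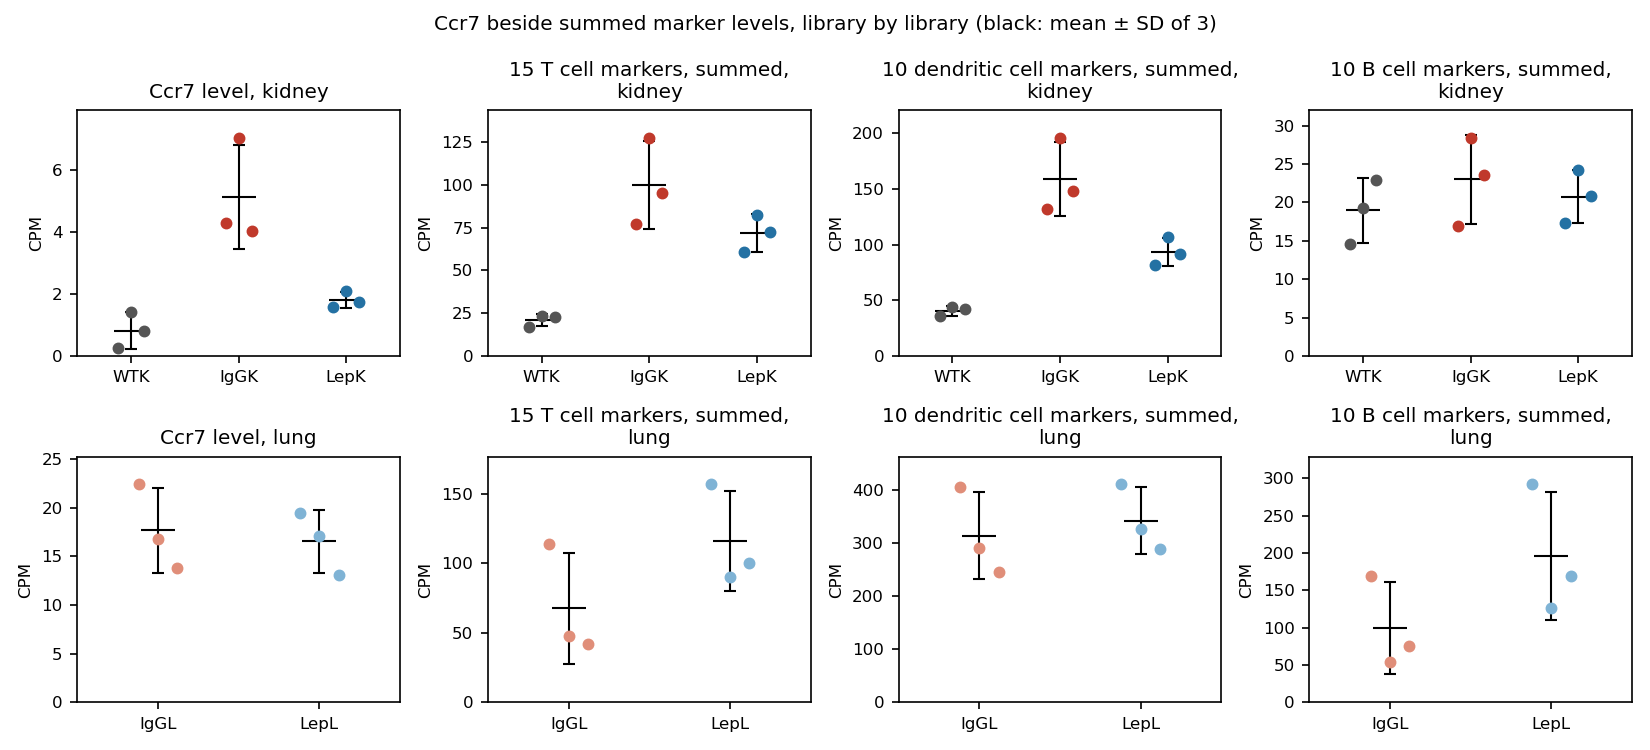
Ccr7 in CPM (left column) beside the summed CPM of T cell, dendritic cell and B cell markers, for kidney (top row) and lung (bottom row), with points for libraries and black marks for the mean ± SD of 3. In the kidney Ccr7 is at 4.05 to 7.06 CPM in IgGK and 1.58 to 2.11 CPM in LepK, where the dendritic cell sums are also lower in LepK (132 to 196 and 81.5 to 107 CPM), while the T cell sums overlap (77 to 128 and 60.6 to 82.6 CPM).

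Against vehicle, most of the 10 genes were still higher in the antibody-treated injured kidney. In LepK against WTK 8 genes were called higher and 0 lower, beside 15.2% and 7.3% of all genes tested. This comparison shares its LepK and WTK libraries with the others, so its values are given side by side with them and not as further evidence. Cxcl16 was 2.15-fold above WTK (in IgGK 3.16-fold), Cxcl10 2.64-fold (3.82-fold in IgGK), Ccl5 2.60-fold (4.44-fold) and Cxcr3 3.43-fold (4.06-fold). Cxcl9, Cxcr6 and Ccl21a were called at 2.11-, 2.46- and 2.07-fold. Cxcl13 was called here, with 1.09, 1.98 and 1.44 CPM in LepK above each WTK library (3.58-fold, log2 fold change 1.84 ± 0.47 (SE), adjusted p = 0.00807). Ccr7 was higher in each LepK library than in each WTK library but did not pass the test (log2 fold change 1.13 ± 0.45 (SE), adjusted p = 0.0678), and Ccl19 did not either (log2 fold change -0.49 ± 0.41 (SE), adjusted p = 0.385). Without WTK replicate 3 or LepK replicate 2 Cxcr6 was not called (adjusted p = 0.0518 and 0.0557), and without WTK replicate 2 Ccr7 was (log2 fold change 1.76, adjusted p = 0.0141).

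Of the lists, 10 of 25 partners rose and 1 fell in LepK against WTK, the latter Ccl28, a mucosal chemokine, at 0.153 of the WTK level, and Cxcl11 was called higher at 1.94-fold. Of 18 interferon-γ response genes 7 rose, of 15 lymphotoxin and noncanonical NF-kB genes 6 rose and 1 fell, and of 4 proteases 1, Mmp9, rose. All 15 T cell markers, all 10 dendritic cell markers and 9 of 12 macrophage markers were called higher than in WTK, beside 1 of 11 cytotoxic markers (Klrk1), 1 of 10 B cell markers (Cd22), 0 of 6 plasma cell markers, 2 of 7 lymphatic markers and 1 of 4 lymph node stroma markers.

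In the bleomycin-injured lung the same antibody comparison gave no call among the 10 genes. In LepL against IgGL 0 rose and 0 fell, beside 1.78% of all 19617 genes tested called higher and 2.36% called lower. DESeq2 called 1 (Cxcr6). At an unadjusted p under 0.05, 5357 of all genes passed in edgeR. The median log2 fold change of the 10 was 0.055, beside 0.0033 over all genes.

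Cxcr6 was at 2.55, 1.14 and 1.96 CPM in IgGL and at 4.90, 2.95 and 4.18 CPM in LepL. Each LepL library was above each IgGL library, 2.13-fold in the fit, but the adjusted p missed the threshold (log2 fold change 1.09 ± 0.35 (SE), adjusted p = 0.0955). Its ligand Cxcl16 was at 149, 144 and 127 CPM in IgGL and at 154, 124 and 117 CPM in LepL, with overlap (log2 fold change -0.09 ± 0.13 (SE), adjusted p = 0.69). Ccl5 was at 15.1, 9.19 and 7.35 CPM in IgGL and at 19, 13.1 and 14.8 CPM in LepL, with IgGL replicate 1 above the lower pair of LepL libraries (log2 fold change 0.57 ± 0.27 (SE), adjusted p = 0.21). The calls depended on IgGL replicate 1. Without that library Cxcr6 and Ccl5 were called higher (log2 fold changes 1.38 and 0.92, adjusted p = 0.0294 and 0.0174) and Cxcl13 lower (-1.53, adjusted p = 0.0208).

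For the Cxcr3 axis, Cxcl10 was at 17.2, 17.2 and 17.6 CPM in IgGL and at 16.4, 12.6 and 11.8 CPM in LepL. All LepL libraries were lower, yet the difference did not pass the test (log2 fold change -0.36 ± 0.16 (SE), adjusted p = 0.187). Cxcl9 was at 7.45, 3.11 and 4.79 CPM in IgGL and at 9.86, 5.67 and 5.32 CPM in LepL, with overlap (log2 fold change 0.44 ± 0.36 (SE), adjusted p = 0.469). Cxcr3 was at 2.99, 1.44 and 1.56 CPM in IgGL and at 2.94, 2.69 and 1.06 CPM in LepL, where LepL replicate 3 was the lowest of all 6 libraries (log2 fold change 0.15 ± 0.46 (SE), adjusted p = 0.866). The counts of Cxcl9 for each count of Cxcl10 were 0.180 to 0.432 in IgGL and 0.451 to 0.603 in LepL, without overlap, as a description.

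None of the genes of lymphoid tissue passed the test in lung. Cxcl13 was at 18.9, 33.6 and 51.1 CPM in IgGL and at 24, 8.18 and 12 CPM in LepL. LepL replicate 1 was above IgGL replicate 1, the groups overlapped, and the estimate of 0.426 of the IgGL level did not pass the test (log2 fold change -1.23 ± 0.43 (SE), adjusted p = 0.112). With both libraries numbered 1 left out, an alternative chosen after the data were seen, Cxcl13 was called lower (log2 fold change -2.06, adjusted p = 0.00181). Ccl21a was at 78.7, 50.4 and 40.7 CPM in IgGL and at 60.01, 53.7 and 51.8 CPM in LepL (log2 fold change -0.039 ± 0.21 (SE), adjusted p = 0.929), with the LepL libraries inside the IgGL range. Ccl19 was at 2.55, 0.361 and 0.532 CPM in IgGL and at 5.09, 0.613 and 0.731 CPM in LepL (log2 fold change 0.88 ± 0.94 (SE), adjusted p = 0.585), and replicate 1 of either group was several times the other two. Ccr7 was at 22.4, 16.7 and 13.8 CPM in IgGL and at 19.4, 17.1 and 13.1 CPM in LepL, with overlap (log2 fold change -0.098 ± 0.21 (SE), adjusted p = 0.804).

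**Figure D4:**
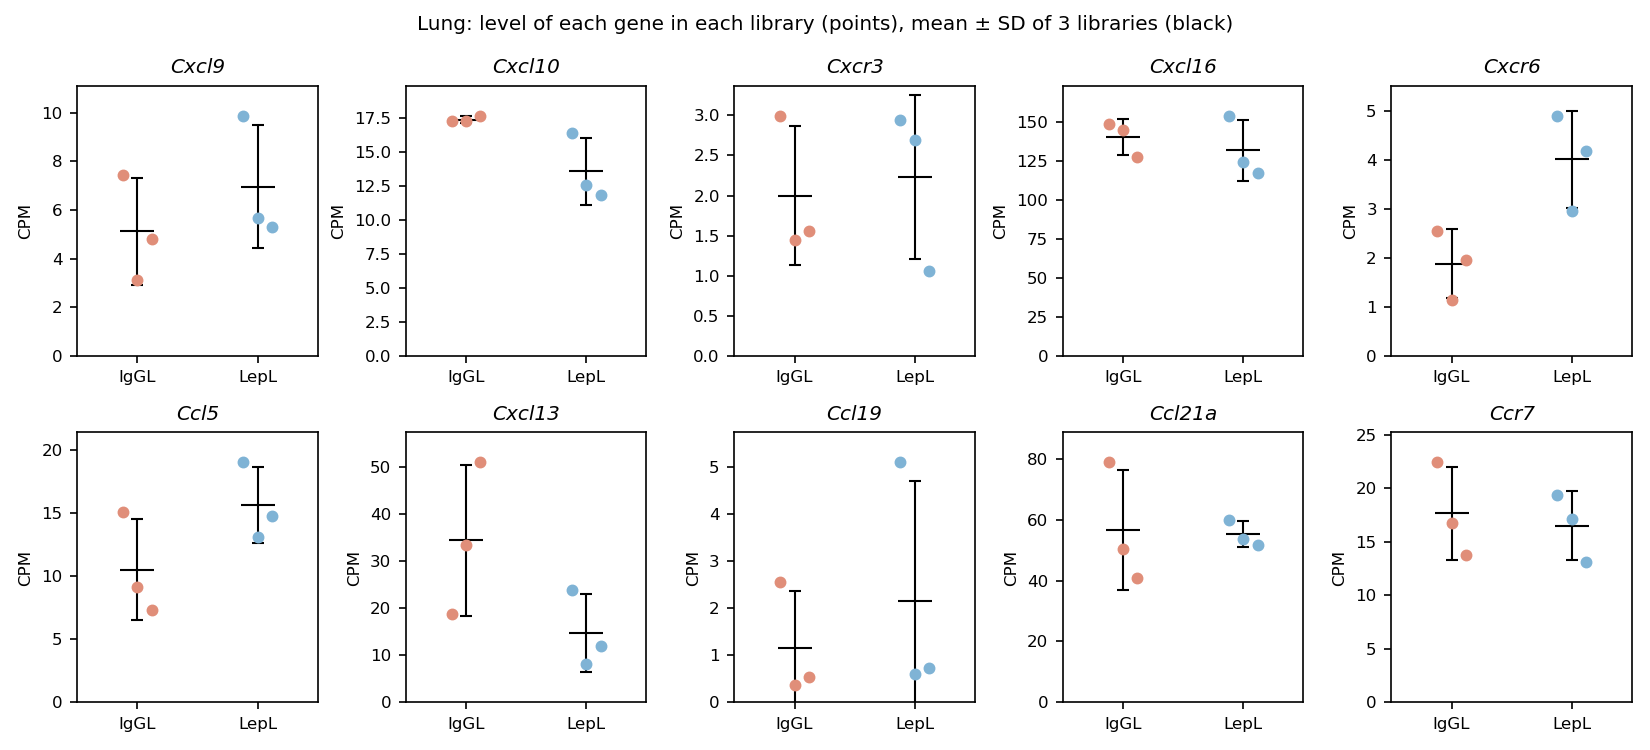
CPM of each of the 10 genes in the IgGL and LepL lungs, each panel with its own linear axis from 0, points for libraries and black marks for the mean ± SD of 3 libraries. Cxcr6 in LepL (2.95 to 4.90 CPM) lies above IgGL (1.14 to 2.55 CPM), and Ccl19 is set by replicate 1 of each group (2.55 and 5.09 CPM).

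Few genes of the pathway lists passed the test in lung. Of 24 partners tested 1 rose and 1 fell. Ackr4, the atypical receptor that scavenges Ccl19 and Ccl21a, rose from 1.02, 0.389 and 0.432 CPM in IgGL to 2.91, 6.66 and 7.10 CPM in LepL (8.94-fold, log2 fold change 3.16 ± 0.49 (SE), adjusted p = 0.0327), and Ackr2, another scavenging receptor, fell to 0.659 of the IgGL level. Ccl3 (log2 fold change 0.52 ± 0.48 (SE), adjusted p = 0.515), Ccl4 (log2 fold change 0.59 ± 0.51 (SE), adjusted p = 0.494) and Cxcr5 (log2 fold change 1.29 ± 0.47 (SE), adjusted p = 0.124) did not pass the test. Cxcl11 (0.0278 to 0.305 CPM in IgGL) and Ifng (0 to 0.0555 CPM in IgGL and 0.227 to 0.351 CPM in LepL) were too low to be tested. Of 17 interferon-γ response genes 1, Irf1, rose (1.64-fold, adjusted p = 0.0498), of 15 lymphotoxin and noncanonical NF-kB genes 0 were called, and of 4 proteases Dpp4, which trims Cxcl9, Cxcl10 and Ccl5, rose 2.33-fold. All calls in lung depended on which libraries entered the fit. With LepL replicate 2, LepL replicate 3 or IgGL replicate 2 left out, 0 genes of the whole table were called by edgeR, and so none of these list genes (4069, 3401 and 3689 genes had an unadjusted p under 0.05), and 3 were called higher and 1 lower without IgGL replicate 3, and 18 higher and 4 lower without LepL replicate 1. Without IgGL replicate 1 the numbers were 1937 higher and 1602 lower.

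Marker sums differed widely between replicates in lung, and replicate 1 of both groups held the highest T cell, B cell and dendritic cell sums. None of 15 T cell markers passed the test (41.9 to 114 CPM in IgGL and 89.99 to 157 CPM in LepL, Cd3e adjusted p = 0.171), nor did any of 10 B cell (54.5 to 169.9 and 127 to 292 CPM), 6 plasma cell (28.5 to 54.9 and 46.4 to 119.6 CPM) or 10 dendritic cell markers (246 to 404 and 288 to 410.5 CPM). Jchain, nearly all of the plasma cell sum in kidney, gave 14.6 to 26.1 CPM of it in IgGL and 21.4 to 78.2 CPM in LepL. Of 11 cytotoxic markers 1, Gzma, rose (4.50-fold, sums 16.9 to 28 and 38 to 58.6 CPM). Of 12 macrophage markers 5 fell, while the sums were higher in LepL (4219 to 7024 and 8279.5 to 8528 CPM) through Lyz2, which alone gave 2203 to 5325 and 6978 to 7375 CPM. Of 7 lymphatic markers Flt4 fell (sums over the list 808 to 1069.6 and 619 to 763 CPM). Of 5 lymph node stroma markers tested Chst4 rose (sums over the list 9.98 to 17.2 and 20.05 to 25.4 CPM). For each 100 CPM of B cell markers Cxcl13 was 11.1 to 67.5 CPM in IgGL and 6.45 to 8.21 CPM in LepL, without overlap, and in the kidney 2.71 to 5.28 CPM in IgGK and 6.30 to 8.17 CPM in LepK. Ccr7 for each 100 CPM of T cell markers was 19.7 to 35 CPM in IgGL and 12.4 to 19 CPM in LepL, again without overlap. For each 100 CPM of dendritic cell markers Ccr7 was 5.54 to 5.76 and 4.54 to 5.25 CPM, also without overlap. That sum lay mainly in Itgax (49.9 to 161 CPM in IgGL and 103 to 182 CPM in LepL) and Fscn1 (109 to 117 and 54.3 to 101 CPM). No ratio without these genes was made, so this difference cannot be read as Ccr7 per dendritic cell. Relative to T cell markers, Cxcr3 was 2.63 to 3.73 CPM in IgGL and 1.06 to 2.99 CPM in LepL. Cxcr6 was 2.24 to 4.69 and 3.12 to 4.17 CPM, and Ccl5 13.3 to 19.2 and 12.1 to 14.7 CPM. Those 3 ratios overlapped between the groups. The part of these markers in the lung values was not tested.

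Whether the antibody difference itself differed between the organs was tested in a fit of the 12 libraries from injured organs. Organ, injury agent, day and length of dosing differ together in that fit and cannot be told apart. Of the 10 genes, 1 had a lower log2 fold change in kidney than in lung and 0 a higher, beside 3.62% and 3.51% of all 21488 genes tested. The gene was Ccr7. Its log2 fold change was -1.50 in kidney and -0.098 in lung, and the difference in the joint fit was -1.38 ± 0.36 (SE, adjusted p = 0.0368). That call held in 3 of the 12 fits that each left out 1 library, those without IgGK replicate 3, LepK replicate 2 and IgGL replicate 1 (adjusted p = 0.0454, 0.0473 and 0.0103), and was lost in the others, with adjusted p up to 0.0932 without IgGK replicate 2.

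Another 3 genes came near the threshold. Cxcr6 had a difference of -1.47 ± 0.46 (SE, adjusted p = 0.0711), Ccl5 one of -1.31 ± 0.38 (adjusted p = 0.0564), and Cxcl13 one of 2.09 ± 0.66 (adjusted p = 0.0715), positive since its estimate was above 0 in kidney and below 0 in lung. Without IgGL replicate 1 all of them were called (adjusted p = 0.0227, 0.0068 and 0.018), and without LepL replicate 1 Cxcl13 alone (adjusted p = 0.034). For Cxcl9, Cxcl10, Cxcr3, Cxcl16, Ccl19 and Ccl21a the differences were -0.82, -0.14, -0.36, -0.43, -1.29 and 0.42, with adjusted p from 0.115 to 0.746. In the lists, 2 of 27 partners were higher and 2 lower in this test, 0 and 7 of 18 interferon-γ response genes, 1 and 0 of 15 lymphotoxin and noncanonical NF-kB genes, and 0 and 1 of 4 proteases. All 15 T cell, 11 cytotoxic and 10 B cell markers had differences below 0, and of them only Klrb1c was called. Their medians were -1.23, -1.59 and -1.11, beside -0.0073 over all genes tested. The part of these markers in the differences was not tested.

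**Figure D5:**
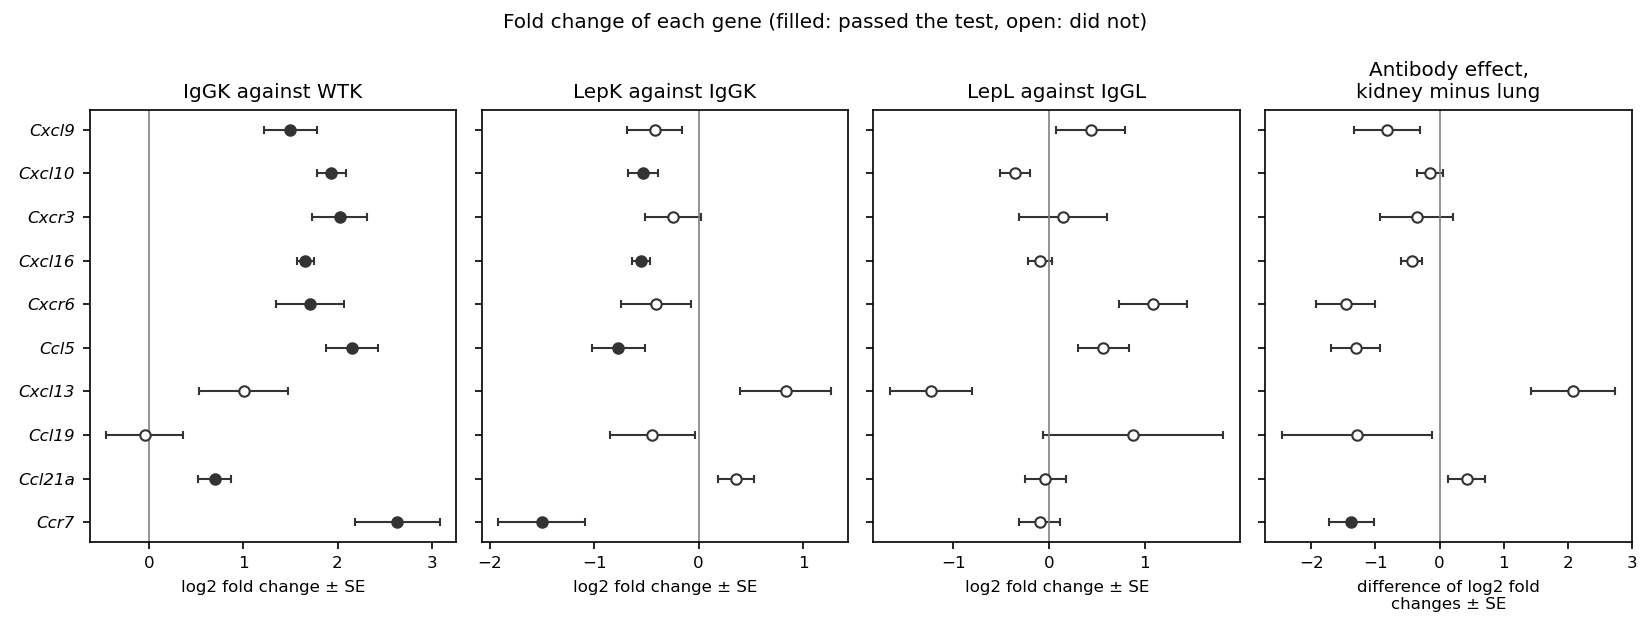
Log2 fold change ± SE of each gene in 3 comparisons and, in the right panel, the antibody log2 fold change in kidney minus that in lung, with filled points for genes that passed the test and open points for those that did not. In IgGK against WTK 8 points are filled, in LepK against IgGK 4, in LepL against IgGL 0, and in the difference between organs only Ccr7.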

How the data were processed

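RNA of whole kidney (9 libraries) and whole lung (6 libraries) was sequenced by Novogene from poly(A)-enriched, non-directional libraries, per the labels. The deposited table holds whole-number read counts per gene and library, with no normalization by the authors, and FPKM values that the authors made from these counts by dividing by the gene length and by a library-wide size. That size was 1.02 to 1.46 times the total count. The submitters' processing notes name the builds GRCm39 and mm39 and the tools DESeq and DESeq2. The aligner and the counting tool are not given in the sources used here. The table also holds the authors' group means, log2 fold changes, p-values and adjusted p-values of each comparison, which were not used. A file that pairs library codes with group names holds no measurements.

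Libraries were grouped by title. A line in the sample descriptions that names a column disagrees with the titles and was not used, and the column of LepL replicate 3 has a suffix that the others lack. The labels do not say how each library relates to an animal, so p-values measure the spread between these samples. The labels give the same batch entry for all samples.

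Counts were filtered with filterByExpr (minimum count 10, minimum total count 15), scaled by TMM factors and tested with edgeR 4.0.16 (glmQLFit and glmQLFTest, R 4.3.3, limma 3.58.1), with the 9 kidney and the 6 lung libraries fitted apart. Calls needed a log2 fold change beyond 0.5 in either direction together with an adjusted p (Benjamini-Hochberg, over all genes tested) under 0.05. The difference in antibody effect between organs used the 12 libraries from injured organs and an adjusted p under 0.05. The SE was taken from the log2 fold change and its F statistic. A fold is the fold change of that fit. The 10 genes were named in every comparison. Values of some list genes are not reported here. A gene of another list was otherwise named if it is a fixed partner, Ifng or a defining marker, or among the 3 called genes of its list with the largest change. The genes and the lists were chosen with earlier results of these data known. The lists were chemokine partners, interferon-γ response, lymphotoxin and noncanonical NF-kB signaling, chemokine-cutting proteases, and markers of T cells, cytotoxic and natural killer cells, B cells, plasma cells, dendritic cells, macrophages, lymphatic endothelium, lymph node stroma, thymus, adipocytes, kidney and lung. The procedure was tested on simulated data. Alternatives were RLE and library-size scaling, DESeq2 1.42.0, no filter, fits of other sets of groups, a replicate block, no fold threshold and each library left out in turn.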

Additional observations from a re-analysis of the deposited data

Results flagged for a closer look

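Differences in the antibody log2 fold change, kidney minus lung, that passed an interaction test in the edgeR fit of 12 libraries (adjusted p under 0.05) are given here as values. Organ, injury agent, day and length of dosing differ together in them and cannot be told apart. Ccr7 had a difference of -1.38. It was called in 3 of 12 fits that left out 1 library.

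Besides the fixed genes, only the 3 called genes with the largest change in each list are named here. In all, 4 adipocyte and 7 interferon-γ response genes were called lower. Named genes with a lower change in kidney were the adipocyte genes Adipoq (-2.74), Plin1 (-2.71) and Retn (-2.29), the lysozyme gene Lyz2 (-2.41), the natural killer receptor Klrb1c (-1.95) and Itgax (-1.86). The interferon-γ response genes Gbp2 (-1.21), Irf1 (-1.17) and Gbp7 (-1.13) belonged to them too. So did the chemokine receptor Cxcr4 (-1.16), the protease Dpp4 (-1.12), the membrane-bound chemokine Cx3cl1 (-0.77) and Nrp2 (-0.60). A higher change in kidney was found for the lymphotoxin receptor Ltbr (0.61), the lymphatic receptor Flt4 (0.80), the scavenging receptor Ackr3 (1.09), the proximal tubule gene Cubn (1.19), which is near 1 CPM in lung, and Reln (1.32). Values of these list genes with 1 library left out are not reported here. Over all genes tested, 754 were called higher and 777 lower in this test. With 1 library left out, the number higher ran from 141 (without LepK replicate 1) to 1853 (without IgGL replicate 1). The number lower ran from 195 (without IgGL replicate 2) to 1910 (without IgGL replicate 1).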

How the results depend on the processing

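With 1 library left out, 8 to 9 genes were higher in IgGK against WTK and 7 to 9 in LepK against WTK. In LepK against IgGK the number lower was 0 to 4 when 1 library was left out and 4 under every other alternative. For LepL against IgGL, 1 gene was higher (Cxcr6) under DESeq2, in the fit of 12 libraries and with no filter on low counts, where 1 was also lower (Cxcl13). With both lung libraries numbered 1 left out, chosen after seeing the data, 1 was higher (Ccl5) and 1 lower (Cxcl13). Leaving out 1 library gave 0 to 2 higher and 0 to 1 lower. For the antibody effect in kidney minus lung, 4 genes were lower under library-size scaling, 3 lower and 1 higher under DESeq2, with no filter and without both libraries numbered 1, and 0 to 3 lower and 0 to 1 higher when 1 library was left out.

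Estimates that changed sign were all of genes that did not pass the test. With 1 library left out, the log2 fold change of Ccl19 in IgGK against WTK ran from -0.40 to 0.31 (0.40 under library-size scaling, 0.042 without WTK replicate 2), and that of Cxcl9 in LepK against IgGK from -0.64 to 0.069. In lung the ranges were -0.23 to 0.27 for Ccl21a, -0.25 to 0.11 for Ccr7, -0.10 to 0.56 for Cxcr3 and -0.77 to 2.25 for Ccl19, and Ccl21a was 0.014 with the replicate block and 0.22 without both libraries numbered 1. Kidney minus lung, the range was -0.23 to 0.0065 for Cxcl10 (0.015 without both libraries numbered 1) and -2.66 to 0.36 for Ccl19. The cause was not tested.

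Replicate numbers were not treated as pairs in the main fits. Deviations of same-numbered IgGK and LepK libraries correlated at 0.182, 0.165 and -0.035, and those of different-numbered libraries at -0.190 to 0.029. With 3 libraries in each group these values cannot settle whether the numbers pair the samples. With the replicate block LepK against WTK had 9 genes higher, as under library-size scaling, DESeq2 and no filter, through Ccr7. Across all genes the block left 1 higher and 3 lower in lung, against 349 and 463 without it, and DESeq2 1205 and 1089, no filter 1515 and 1173, the fit of 12 libraries 1069 and 998, and the lungs without both libraries numbered 1 1873 and 1555. Library-size scaling shifted the all-gene median (log2) to 0.48 for IgGK against WTK, to -0.19 for LepK against IgGK, to 0.29 for LepK against WTK and to -0.25 for kidney minus lung. The share of calls that were higher was then 86.9%, 15.7%, 90.3% and 11.2%, against 58.2%, 42.2%, 67.6% and 49.2%. Low counts limited Ccr7 in WTK (6 to 36 counts), Cxcl13 in WTK and IgGK (9 to 43) and Ccl19 in lung (13 to 156).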

Other observations

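Markers of other tissues were read in the same libraries. Of 6 kidney markers 3 fell in IgGK against WTK, Slc34a1 to 0.242, Lrp2 to 0.346 and Cubn to 0.485 of the WTK level, and Slc34a1 and Lrp2 rose 1.84- and 1.48-fold in LepK against IgGK. Their sums were 12968 to 13757 CPM in WTK, 3877 to 5000.2 in IgGK, 6736 to 8092 in LepK, 31 to 90.4 in IgGL, where Slc34a1 and Umod were at 0, and 122 to 159 in LepL, where Nphs1 was at 0. The surfactant genes Sftpc and Sftpa1 rose 2.64- and 2.58-fold in LepL against IgGL, 2 of 6 lung markers (sums over the list 16179.5 to 21946 CPM in IgGL and 29932 to 46978 CPM in LepL).

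Of 5 adipocyte markers 4 rose in IgGK against WTK, Retn 5.40-fold and Adipoq 4.12-fold among them, and 1 fell. Adipoq fell to 0.418 of the IgGK level in LepK and rose 2.86-fold in LepL against IgGL. The sums were 22.7 to 71.2 CPM in WTK, 143 to 237 in IgGK, 46.4 to 114 in LepK, 12.2 to 22 in IgGL and 36.8 to 50.8 in LepL. Of 6 thymus markers, Rag1, a recombinase of developing lymphocytes, was at 2.25, 0.613 and 0.756 CPM in LepL and at 0 in the other 12 libraries, and Foxn1 was at 0 in WTK and at 0.561, 0.629 and 0.780 CPM in IgGK. Sums over the list were 0 to 0.316 CPM in WTK, 0.758 to 1.10 in IgGK, 0.329 to 1.24 in LepK, 0.305 to 0.865 in IgGL and 1.14 to 4.57 in LepL. Rag2 was at 0 in the kidneys.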
